A study of Drosophila melanogaster with 2 samples.

Results

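The microRNA (miRNA) genes of Drosophila melanogaster were examined for binding of woc (without children), a zinc finger protein known for roles in ecdysone production, telomere capping and transcription together with the heterochromatin protein HP1c. All genes annotated as miRNA precursors on 2L, 2R, 3L, 3R, 4 and X were taken, 260 of the 17683 genes on these chromosome arms. Chromatin came from whole wandering larvae of the third instar, males and females pooled, of 1 fly line that carries a transgene for woc joined to eGFP at its C terminus, and the DNA bound by the fusion protein was recovered through its GFP. Biological replicates 1 and 3 gave 2 libraries from separate samples of that line, which form 1 group, with no second genotype, treatment or time, so no test between conditions was possible. Whole larvae mix every tissue, so a peak present in few cells and a weak peak present in all cells cannot be told apart. The sources used here do not give the regulatory sequence that drives the transgene.

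The authors' optimal list on genome build dm6 held 6636 peaks, and 6614 of their summits lay on the 6 arms. Each peak carries a signal from the authors' peak caller, which has no stated unit and is used here for order within a list. Rank 1 is the highest signal on the arms. A miRNA gene was scored by optimal summits within 500 bp, and within 5 kb, of the 5' end of its annotated hairpin precursor, and upstream is given on the strand of the miRNA. Read totals were not used here, so the depth behind each library is unknown, and the exact binomial 95% intervals below cover counting error over genes only.

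A miRNA is cut from a long primary transcript: Drosha with Pasha frees the hairpin in the nucleus, Dicer-1 with Loqs trims it in the cytoplasm, and Argonaute 1 with the GW182 protein (gw) uses the short strand to silence mRNAs that match its seed, bases 2 to 8. The 5' end of the hairpin is therefore not a transcription start site (TSS). The start of its transcript can be the TSS of a protein-coding host gene on the same strand or that of a non-coding primary transcript. Mirtrons are hairpins that fill a whole short intron and are freed by splicing in place of Drosha. In flies the let-7 complex is induced by ecdysone around metamorphosis, bantam (annotated as mir-ban) promotes tissue growth and blocks cell death, mir-9a and mir-279 act in the making of sense organs and sensory neurons, and the miR-2 seed family holds down genes that cause cell death.

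The mature strands of the genes on which the results turn are given 5' to 3' as RNA, read from the RefSeq sequence of build dm6 at the annotated positions, with the seed in capitals. The first set shares the miR-2 seed and is shown because 8 of its 14 genes lay within 5 kb of a summit, through 4 distinct summits. Over all miRNA genes that share was 30.4%, and over all other genes 41.5%. Of the 8, mir-2a-1 and mir-2b-2 lie in the gene spi on 2L, mir-2c, mir-13a and mir-13b-1 in 1 lncRNA on 3R, and mir-11 in E2f1 on 3R.
mir-2a-1: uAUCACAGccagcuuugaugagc
mir-2b-2: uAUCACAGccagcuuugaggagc
mir-2c: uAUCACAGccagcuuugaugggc
mir-13a: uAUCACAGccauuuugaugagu
mir-13b-1: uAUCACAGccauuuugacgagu
mir-11: cAUCACAGucugaguucuugc

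A second set pairs neighbours that share a seed and a peak. The hairpins of mir-279 and mir-996, both on 3R, follow each other in 1 primary transcript, and those of mir-92a and mir-92b lie in the gene jigr1 on 3R.
mir-279: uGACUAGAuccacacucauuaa
mir-996: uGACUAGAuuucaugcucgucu
mir-92a: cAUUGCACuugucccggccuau
mir-92b: aAUUGCACuagucccggccugc

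The third set holds genes with strong or ecdysone-linked loci and no shared seed: mir-282, mir-9a and mir-ban on 3L, and mir-275, mir-305 and the 3 hairpins of the let-7 complex on 2L.
mir-282: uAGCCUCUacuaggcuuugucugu
mir-9a: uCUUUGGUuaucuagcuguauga
mir-ban: uGAGAUCAuuuugaaagcugauu
mir-275: uCAGGUACcugaaguagcgcgcg
mir-305: aUUGUACUucaucaggugcucug
mir-let7: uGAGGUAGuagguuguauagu
mir-100: aACCCGUAaauccgaacuugug
mir-125: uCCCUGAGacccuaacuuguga

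Few miRNA genes had a woc-eGFP summit at the hairpin itself. Of the 260 miRNA genes, 9 had an optimal summit within 500 bp of the 5' end, a share of 3.46% (1.59% to 6.47%), against 17.6% of the 17423 other genes. The share was 19.8% of protein-coding genes, 10% of other ncRNA genes, 7.24% of tRNA genes and 4.46% of snoRNA genes, another class that is mostly cut out of host introns. Within 5 kb, 79 miRNA genes had a summit, which is 30.4% (24.9% to 36.4%), against 41.5% of other genes. That wider share was 42.2% of protein-coding genes, 43.1% of tRNA genes and 69.5% of snoRNA genes, so the miRNA share lay below these. For ncRNA genes it was 38.0% (36.1% to 39.9%), an interval that overlaps that of the miRNA genes. Of the 32 snRNA genes 28.1% had a summit, which is below the miRNA share. The median distance from a miRNA 5' end to the nearest summit was 10493 bp, against 7245 bp for protein-coding genes, 9138 bp for ncRNA genes and 2282 bp for snoRNA genes.

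**Figure D1:**
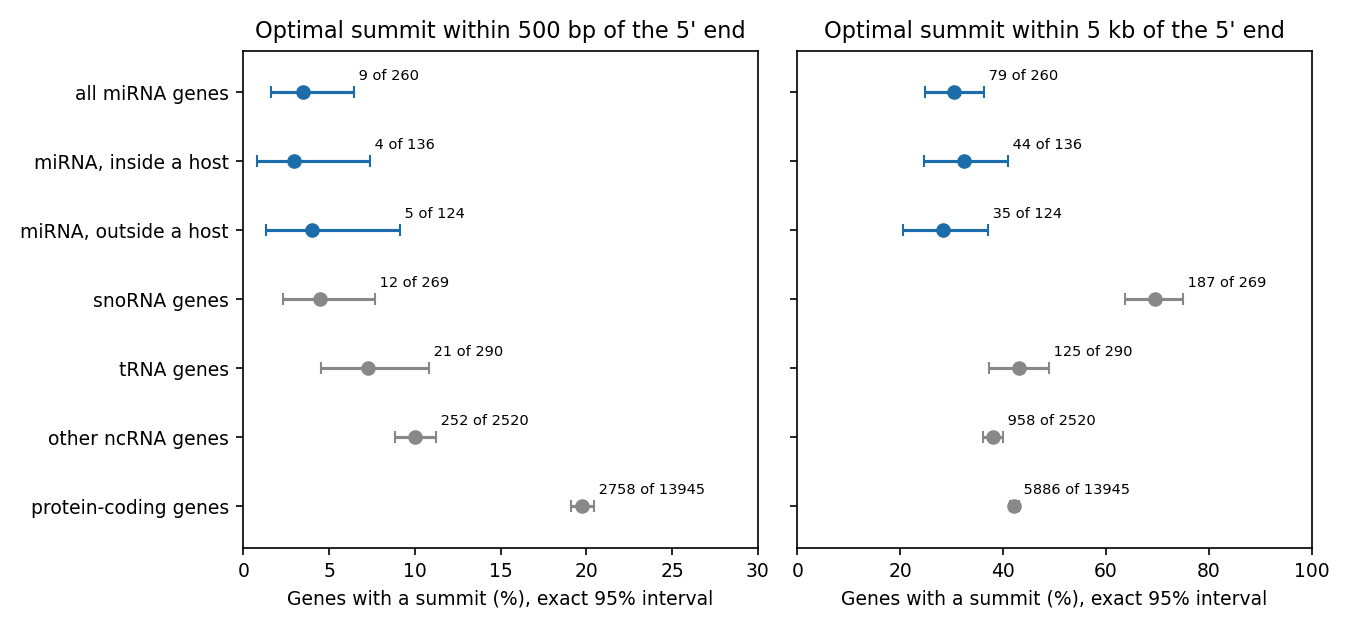
Share of genes with an optimal woc-eGFP summit within 500 bp (left) and within 5 kb (right) of the annotated 5' end, in percent, by kind of gene; points are shares, bars are exact 95% binomial intervals and the counts stand beside them. The 3 miRNA rows (blue) lie between 2.94% and 4.03% on the left and between 28.2% and 32.4% on the right, below protein-coding genes (grey) in both panels.

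Hairpins inside and outside a host had like shares. A precursor was called inside when it lay wholly within a protein-coding gene on the same strand, which held for 136 miRNA genes in 124 distinct hosts, with 2 hosts each for 4 of these miRNA genes. The call uses the span of the gene, so not every gene inside is intronic. Of all 260 miRNA genes, 38 overlapped an exon of a same-strand coding transcript. Within 500 bp, 4 of the 136 inside had a summit (2.94%, 0.807% to 7.36%), and 5 of the 124 outside (4.03%, 1.32% to 9.16%). Within 5 kb the counts were 44 of 136 inside (32.4%, 24.6% to 40.9%) and 35 of 124 outside (28.2%, 20.5% to 37.0%). These intervals overlap broadly, and the difference was not tested. The nearest summit was a median of 8569.5 bp away for genes inside and 13762 bp for genes outside.

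The outside class was itself mixed. Of its 124 genes, 30 lay in a protein-coding gene on the opposite strand and 94 in none. Those on the opposite strand had no summit within 500 bp (0 of 30, with an upper bound of 11.6%) and 2 within 5 kb (6.67%, 0.818% to 22.1%). Those in no protein-coding gene had 5 of 94 within 500 bp (5.32%) and 33 of 94 within 5 kb (35.1%, 25.5% to 45.6%). Among genes inside a host, 34 were mirtrons by position, and of these 0 had a summit within 500 bp (upper bound 10.3%) and 7 within 5 kb (20.6%, 8.70% to 37.9%), against 37 of the 102 other inside genes within 5 kb (36.3%, 27.0% to 46.4%).

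Within 5 kb, the X chromosome had the lowest share among the 5 long arms. On X, 10 of 58 miRNA genes had a summit within 5 kb (17.2%, 8.59% to 29.4%), against 43.5% of the other genes there. Within 500 bp X did not stand lowest, with 3.45%, above 1.82% on 2R and 1.72% on 3R. On the other long arms the miRNA share ran from 30.9% on 2R to 37.5% on 2L, and other genes had 39.6% and 39.7% on those arms. Both miRNA genes on 4 were without a summit in either window. The X set holds the 16 testis cluster genes, none of which had a summit within 5 kb. It also holds the 3 mir-10404 copies, which have the same seeds on both arms. How reads map to such copies was not examined, and the part of these genes in the lower share was not tested.

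The 9 genes with a summit within 500 bp had peaks of middling to low signal. Their signals lay between 105 and 193, with ranks from 3097 to 6266 of 6614. None of these peaks was the highest within 5 kb for mir-282, mir-275, mir-193, mir-92b, mir-9377, mir-11182 or mir-4942. Only mir-4974 and mir-2491 had no other summit within 5 kb.

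Inside hosts, mir-9377 (X:12665217-12665268) in Tis11, a protein that binds AU-rich elements of mRNAs, had a summit 355 bp downstream of its 5' end with signal 193 in the pooled list, 106 in replicate 1 and 144 in replicate 3. A further summit lay 85 bp downstream (155). The hairpin of mir-4974 (2L:21263933-21264034) in CG8671 had a summit 224 bp upstream with signal 177, and values of 76.6 in replicate 1 and 103 in replicate 3. At mir-2491 (X:22833440-22833583), in the gene of the secreted ligand fog, the summit was 141 bp upstream with signal 129, and the libraries gave 28.1 and 99.4. At mir-92b (3R:25651398-25651497) in jigr1 it was 259 bp downstream with signal 105, and the libraries gave 31.0 and 73.5. Replicate 3 had the higher value at all 4 genes, and none of the 4 summits lay within 500 bp of a protein-coding TSS.

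Outside hosts, 3 of the 5 summits lay at the promoter of a coding gene. Of these 3 hairpins, mir-11182 and mir-4942 overlap an exon of a same-strand coding transcript but lie wholly within no same-strand coding gene. The summit 40 bp upstream of mir-11182 lay 48 bp from the TSS of CG5726, with signal 142, 66.7 in replicate 1 and 71.9 in replicate 3. The summit 46 bp downstream of the mir-4942 5' end lay 52 bp from the TSS of ND-MLRQ, a subunit of respiratory complex I, with signal 129, 55.8 in replicate 1 and 67.4 in replicate 3. The summit 417 bp downstream of mir-193 lay 126 bp from the TSS of EMC10, a subunit of a membrane protein insertion complex, with signal 108, 46.7 in replicate 1 and 64.5 in replicate 3. For these 3 a summit of the miRNA and one of the coding gene cannot be told apart.

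The remaining 2 had no coding TSS at the summit. At mir-275 (2L:7425795-7425892) the summit was 424 bp upstream with signal 164, 64.6 in replicate 1 and 162 in replicate 3. At mir-282 (3L:3251022-3251118) it was 319 bp downstream with signal 151. The libraries differed most here, with 142 in replicate 1 at rank 855 and 28.6 in replicate 3 at rank 14429 of 29999, so that this near summit rests on replicate 1. Of the 29 miRNA genes with a coding TSS within 500 bp of their 5' end, 3 had a summit in that window (10.3%), and of the 231 without one, 6 (2.60%, 0.959% to 5.57%).

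Strong peaks lay further off, mostly upstream. For 58 of the 79 miRNA genes with a summit within 5 kb, the highest one was upstream (73.4%), which held for 32 of 44 inside a host and 26 of 35 outside. The same share was 63.9% for protein-coding genes, 49.0% for ncRNA genes and 84.5% for snoRNA genes. The highest summit lay within 500 bp of a protein-coding TSS for 42 of the 79, at the TSS of a non-coding gene alone for 9, and at neither for 28. Clustered hairpins share peaks, so the 79 genes have 62 distinct highest summits. A signal above 500 was reached for 20 of the 79 genes through 15 distinct summits, and 35 had a highest signal of 200 or less.

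**Figure D2:**
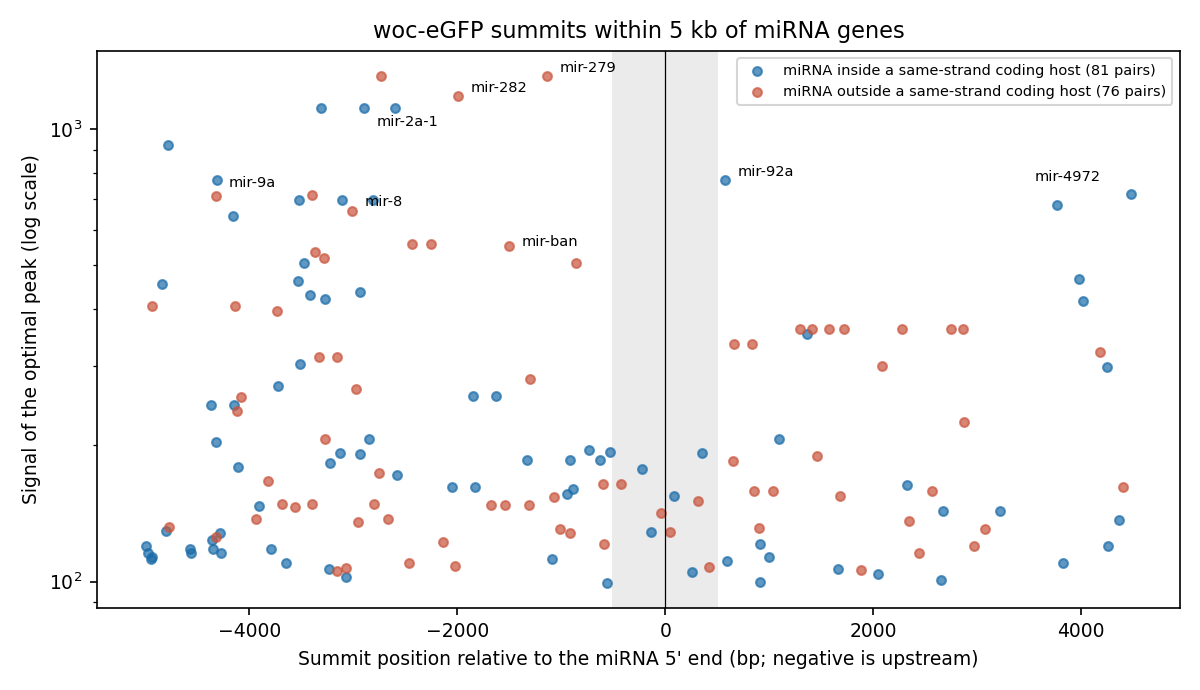
Position of each optimal summit within 5 kb of a miRNA 5' end (horizontal axis, bp on the strand of the miRNA, negative upstream) against its signal in the pooled list (vertical axis, log scale). Each of the 157 points is 1 pair of a miRNA gene and a summit, 81 inside a coding host (blue) and 76 outside (red). Within the grey band of 500 bp no signal exceeds 193. The pairs above 1000, at mir-279, mir-996, mir-282, mir-2b-2, mir-2a-1 and mir-2a-2, lie 1135 to 3306 bp upstream, and neighbouring hairpins share summits.

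The strongest locus was that of mir-279 and mir-996, which repress the making of carbon dioxide sensing neurons in the wrong place. Their shared peak (3R:29214110-29214643) had signal 1310 at rank 26 of the list. It was present in both libraries, with 309 in replicate 1 at rank 57 and 1004 in replicate 3 at rank 24. The summit lay 112 bp from the TSS of lncRNA:CR31044, the non-coding gene that contains both hairpins. It was 1135 bp upstream of mir-279 and 2734 bp upstream of mir-996, and the nearest coding TSS, of eEF1gamma, was 5722 bp away.

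The locus of mir-282 came next, with a signal of 1185 at rank 34 (3L:3248587-3249350). The libraries gave 320 at rank 47 in replicate 1 and 884 at rank 36 in replicate 3. This summit was 1990 bp upstream of the hairpin and 308 bp from the TSS of its own primary transcript, lncRNA:CR43626. With 7 optimal summits within 5 kb, from 4141 bp upstream (407) to 3077 bp downstream (131), mir-282 had the most of any miRNA gene, while 40 of the 79 had 1 summit.

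Strong peaks upstream of hairpins in non-coding transcripts also occurred at mir-9a, mir-8, mir-275 and mir-ban. At mir-9a, which limits the number of sensory organ precursors, a peak of signal 713 had its summit 4320 bp upstream, 215 in replicate 1 and 513 in replicate 3. That summit lay 379 bp from the TSS of another non-coding gene, lncRNA:CR44676, and the annotated host lncRNA:CR45916 had none at its own TSS. At mir-8, a regulator of insulin signalling and body size, summits of signal 661 and 506 lay 3010 bp and 857 bp upstream, the nearer one 114 bp from the TSS of lncRNA:CR43650, its host. Both libraries held the stronger mir-8 peak, with 166 in replicate 1 and 500.5 in replicate 3.

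At mir-275 and mir-305, an adjacent pair of which mir-305 acts in intestinal stem cells, the highest of 5 summits had signal 558, 214 in replicate 1 and 362 in replicate 3. It lay 279 bp from the TSS of lncRNA:CR43857, 2254 bp upstream of mir-275 and 2431 bp upstream of mir-305. At mir-ban, signal 552 was recorded 1506 bp upstream of the hairpin, 988 bp from the nearest TSS of its host lncRNA:CR43334. The libraries gave 160 and 411 there, and further summits stood 1304 bp upstream (281) and 2085 bp downstream (300.2). At mir-317 on 3R, signal 536 stood 3365 bp upstream and 4380 bp from the nearest ncRNA TSS, with 113 in replicate 1 and 419 in replicate 3. In all of these loci replicate 3 had the higher value.

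**Figure D3:**
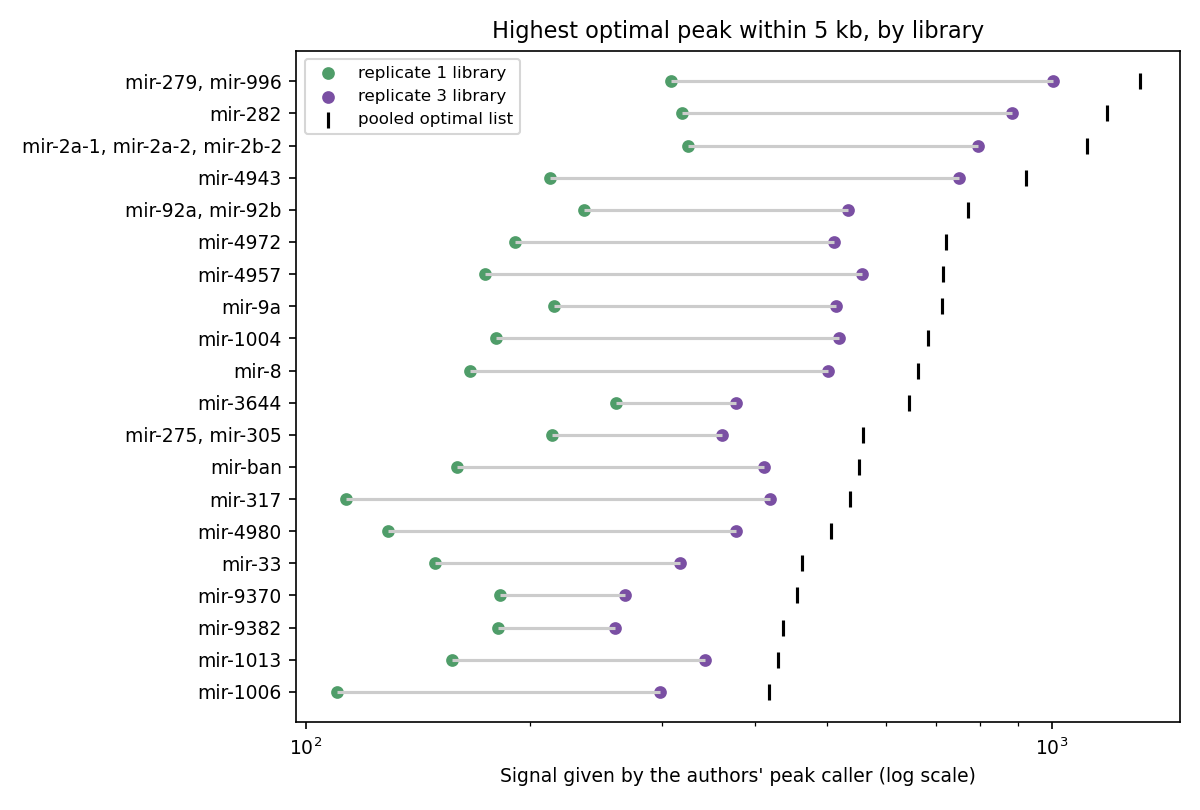
Signal of the highest optimal peak within 5 kb of the miRNA genes named on the left (horizontal axis, log scale, as given by the authors' peak caller), for the 20 highest distinct summits. Green points are the replicate 1 library, purple points the replicate 3 library and black ticks the pooled list; replicate 3 is higher at each of the 20, from 309 against 1004 at mir-279 and mir-996 at the top, and the lists state no scaling that would make the libraries comparable.

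The DNA around 6 of these summits is printed from the RefSeq sequence of dm6, on the plus strand, 60 bases to either side. They include the strongest loci, at ranks 26, 34 and 49, and the ecdysone-linked let-7 complex. The mir-275 (558) and mir-ban (552) peaks are neither. Windows at the stronger peaks of mir-92a (771) and mir-9a (713) held no match to the motifs searched and are not printed. The printed windows therefore do not show how common the motifs are. Capitals mark matches, on either strand, to 2 of the motifs searched: GAGAG (the repeat bound by GAGA factor) and CACGTG (an E-box). The first 2 are the summits at the mir-279 (3R) and mir-282 (3L) primary transcripts, then come the spi promoter above mir-2a-1 (2L), the mir-275 (2L) and mir-ban (3L) peaks, and the peak above mir-100 and let-7 (2L).
mir-279 (chr3R:29214390-29214510): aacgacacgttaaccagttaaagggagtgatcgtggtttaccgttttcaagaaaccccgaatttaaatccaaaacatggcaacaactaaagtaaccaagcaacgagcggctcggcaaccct
mir-282 (chr3L:3248972-3249092): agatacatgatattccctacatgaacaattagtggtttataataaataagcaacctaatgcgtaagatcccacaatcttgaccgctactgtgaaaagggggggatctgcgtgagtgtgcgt
mir-2a-1 (chr2L:19572807-19572927): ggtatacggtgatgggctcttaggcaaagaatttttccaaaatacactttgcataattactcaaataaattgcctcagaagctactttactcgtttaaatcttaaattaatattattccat
mir-275 (chr2L:7423481-7423601): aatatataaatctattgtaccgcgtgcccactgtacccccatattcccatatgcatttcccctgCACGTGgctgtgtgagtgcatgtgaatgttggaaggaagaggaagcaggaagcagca
mir-ban (chr3L:640642-640762): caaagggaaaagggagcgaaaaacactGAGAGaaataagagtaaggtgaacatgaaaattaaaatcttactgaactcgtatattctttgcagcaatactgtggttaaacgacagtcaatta
mir-100 (chr2L:18468574-18468694): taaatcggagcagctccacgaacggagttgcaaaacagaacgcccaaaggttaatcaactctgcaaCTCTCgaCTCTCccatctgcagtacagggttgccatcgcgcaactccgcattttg

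Over the 126 distinct summits within 5 kb of a miRNA gene, 6 of the 7 motifs searched had shares whose intervals held the share over all 6614 summits. In windows of 300 bases centred on the summit and read on both strands, GAGAG stood in 41.3% near miRNA genes (32.6% to 50.4%), against 36.0% of all windows. TATCGATA, the DREF element, stood in 3.97% (1.30% to 9.02%), against 4.55%, and GGTCACACT, the core of the M1BP motif, in 2.38%, against 2.27%. CACGTG was found in 4.76%, against 3.07%, and TGACGT in 6.35%, against 6.64%. ATCGAT, which lies inside TATCGATA, was in 7.14% (3.32% to 13.1%), against 13.7%, just above its interval. The other E-box, CAGCTG, was in 9.52% (5.02% to 16.0%), against 13.8%. These matches describe letters only, and the 126 summits are part of the 6614.

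The promoters of host genes were bound in a share above that of coding genes at large, and whether the difference passed the counting error depended on the peak list. A host counted as bound when any TSS of its coding transcripts had an optimal summit within 500 bp. This held for 36 of 124 distinct hosts, 29.0% (21.2% to 37.9%), against 21.9% of all 13945 protein-coding genes, a value near the low end of the hosts' interval but within it. With each library alone the host share was 32.3% (24.1% to 41.2%), against 21.8% of coding genes without replicate 1 and 23.6% without replicate 3, both below that interval. In the relaxed pooled list it was 54.8% (45.7% to 63.8%), against 38.5%. With a window of 250 bp the host share was 19.4%, against 18.1%, and with 1000 bp 33.1%, against 25.0%. With the peaks of highest signal it was 19.4%, against 14.2%. In each of these settings of window and signal the hosts' interval held the coding share. Hosts have a median of 2 TSSs and a span of 13462 bp, against 1 TSS and 2166 bp for all coding genes, which gives them more places to be called, and the part of this in the difference was not tested.

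The promoter of spi, which encodes the EGF receptor ligand Spitz, was the strongest among hosts. Its peak had signal 1115 at rank 49, 325 in replicate 1 and 795 in replicate 3, with the summit 257 bp from a TSS of spi. It lay 2603 to 3306 bp upstream of mir-2b-2, mir-2a-1 and mir-2a-2, the 3 hairpins in this gene. A second summit above them, 3107 bp upstream of mir-2a-1, had signal 698.

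The next hosts were CG5953 of mir-4943 with 924, bun, a TSC22 family gene that holds mir-967, with 811, and jigr1 of mir-92a and mir-92b with 771. The jigr1 summit lay 163 bp from a TSS of the gene, 4315 bp upstream of mir-92b but 577 bp downstream of mir-92a, and the libraries gave 236 and 532. Both of these miRNAs are known to act in the self-renewal of neural stem cells. The cGMP-dependent kinase gene for, host of mir-4972, followed with 720, 191 in replicate 1 and 511 in replicate 3, and its summit lay 4474 bp downstream of the hairpin.

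Weaker peaks stood at the promoters of SREBP, E2f1, RpS23, grp and kis. SREBP, the regulator of lipid synthesis that holds mir-33, itself a miRNA of lipid metabolism, had signal 462 (149 in replicate 1, 318 in replicate 3), with the summit 491 bp from its TSS and 3535 bp upstream of mir-33. E2f1, whose intronic mir-11 is known to restrain the cell death that E2f1 induces, had 258 at its promoter, 10860 bp from mir-11 and 11410 bp from mir-998. The highest summit within 5 kb of mir-11 and mir-998 lay instead downstream, with signal 144, 33 bp from a TSS of InR, the insulin receptor gene. In RpS23, a ribosomal protein gene, the summit was 23 bp from the TSS with signal 195 and 737 bp upstream of mir-308. The promoter of grp, the Chk1 kinase gene that holds mir-9c, mir-306, mir-79 and mir-9b, had 181. A promoter of the chromatin remodeller kis, host of mir-965, had 114, but its summit lay 21071 bp downstream of that hairpin.

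A bound host promoter was often far from the hairpin. Of the 36 bound hosts, 17 had no summit within 5 kb of their miRNA. Examples were bun with mir-967 (23894 bp away), Btk with mir-2b-1 (655, 19189 bp) and Atet with mir-1005 (597, 10273 bp). In each of these genes another host TSS lay nearer, 1156, 7101 and 4972 bp upstream of the hairpin, with no summit within 500 bp. Among the 88 unbound hosts, 20 had a summit within 5 kb of their miRNA. For 17 of the 44 inside genes with a summit within 5 kb the highest one stood at a TSS of their own host, and for 9 more it stood at the TSS of another coding gene. For 8 bound hosts the summit also lay within 500 bp of another coding TSS. Among these, the peak at Actn, host of mir-4954, was shared with usp, which encodes the partner of the ecdysone receptor, and had signal 197.

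The peaks of the other genes among the 20 highest stood at coding promoters, and a peak of the miRNA and one of that promoter cannot be told apart. The peak upstream of mir-4957 (714) lay 160 bp from the TSS of Top1, a DNA topoisomerase. The one downstream of mir-1004 (682) lay 308 bp from bowl, a zinc finger transcription factor. At mir-3644 (644) the summit was shared by its host Kpc1, 308 bp away, and CG42542, 80 bp away. At mir-4980 (506) the coding TSS was that of CG46385, 212 bp from the summit, not that of its host CanB2.

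Non-coding hosts were the other kind of annotated host. In all, 51 miRNA genes lay within a same-strand ncRNA gene, and these hosts numbered 36. Some of the 51 also lay in a coding host, such as mir-281-1 and mir-281-2 in Oda and mir-987 in CG13739. An optimal summit lay within 500 bp of a TSS of 9 of the 36 (25%, 12.1% to 42.2%), against 10.3% of all 2520 ncRNA genes. This comparison was chosen after the values were seen. Without replicate 1 the share was 22.2% (10.1% to 39.2%), an interval that holds the 10.4% of all ncRNA genes. Besides lncRNA:CR31044, lncRNA:CR43626, lncRNA:CR43857 and lncRNA:CR43650, described above, the bound ones were lncRNA:Hsromega, asRNA:CR46194, lncRNA:CR43334, lncRNA:CR43651 and lncRNA:CR46006. Hsromega, a heat-inducible nuclear RNA that holds mir-4951, had signal 495, and its nearest TSS upstream of mir-4951 was 20095 bp away. At asRNA:CR46194, which holds mir-281-1 and mir-281-2, it was 258, and at lncRNA:CR43334, at a TSS far upstream of mir-ban, it was 160. The summit at lncRNA:CR43651, host of mir-14, lay 6 bp from the TSS with signal 128. At lncRNA:CR46006, host of mir-276a, signal 125 lay 448 bp from a TSS far upstream of the hairpin. The nearest host TSS upstream of mir-276a, 1209 bp away, had no summit within 500 bp. The 27 without a summit included the hosts of the let-7 complex, of mir-1, a muscle miRNA, of mir-124, a neuronal miRNA, of mir-277 and mir-34, and of the early embryo cluster.

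Lists of miRNA genes by known role differed in their counts, and the differences were not tested. Among ecdysone-linked miRNAs, 7 of 11 had a summit within 5 kb (63.6%), against 30.4% of all miRNA genes and 41.5% of other genes. Within 500 bp the count was 0. Those 7 rest on 4 distinct summits. The let-7 complex, mir-100, mir-let7 and mir-125, shared 1 weak peak of signal 148 at 2800, 3400 and 3681 bp upstream, with 80.4 in replicate 1 and 60.4 in replicate 3, and it lay 12917 bp from the nearest TSS of the annotated let-7 complex transcript. This was one of the loci where replicate 1 was the higher. At mir-14, which limits cell death and fat storage and acts on ecdysone receptor levels, the highest peak had 128, with 60.5 in replicate 1 and 61.0 in replicate 3. For mir-281-1 and mir-281-2 it was the peak of signal 258, 1630 and 1848 bp upstream, and mir-8 is given above.

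The other 4 ecdysone-linked genes had no summit within 5 kb. The nearest was 5188 bp away for mir-252, 6513 bp for mir-965, 12969 bp for mir-34, which is repressed by ecdysone, and 18009 bp for mir-278, which acts in energy balance. The relaxed pooled list, which also holds background, had a peak of signal 51.4 within 500 bp of mir-34. In that list 20.4% of miRNA genes and 34.7% of other genes had a peak within 500 bp.

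Among growth and cell survival miRNAs, 17 of 27 had a summit within 5 kb (63.0%), through 11 distinct summits, and mir-275 also within 500 bp. The share within 5 kb was 30.4% over all miRNA genes and 41.5% over other genes. Besides those named above, the 17 included mir-2c, mir-13a and mir-13b-1, with a shared peak of signal 148 lying 1309, 1538 and 1679 bp upstream, and mir-263b in meru (128). Those without one were mir-2b-1, mir-bft (also called mir-263a), mir-184, mir-278, mir-7, mir-277, mir-13b-2, mir-6-1, mir-6-2 and mir-6-3. Their nearest summits ranged up to 19189 bp away, at mir-2b-1 in Btk.

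Among neural and sensory miRNAs, 11 of 26 had a summit within 5 kb (42.3%), against 30.4% of all miRNA genes and 41.5% of other genes. Within 500 bp 3 had one, namely mir-282, mir-193 and mir-92b, against 3.46% of all miRNA genes and 17.6% of other genes. The others with one within 5 kb were mir-279, mir-996, mir-9a, mir-92a, mir-87 (396), mir-276a (138), mir-276b (167) and mir-263b. Of these mir-276a is known for its part in olfactory memory. The neuronal miRNA mir-124 had its nearest summit 52039 bp away, and mir-31a, mir-137, mir-190, mir-210, mir-219, mir-284, mir-285, mir-289, mir-315, mir-927, mir-932, mir-958, mir-1000 and mir-31b also had none within 5 kb.

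Other lists had shares below the 30.4% of all miRNA genes and 41.5% of other genes, though with 28.6% in the muscle and fat body list. Of the 4 Hox cluster miRNAs, mir-10 in the Antennapedia complex had a summit 2974 bp upstream (267, 76.6 in replicate 1 and 179 in replicate 3), and mir-993, mir-iab-4 and mir-iab-8 had none. The hairpins mir-iab-4 and mir-iab-8 are read from opposite strands of the same sequence, and their nearest summit was 113817 bp and 113750 bp away. None of the 8 miRNAs of the early embryo cluster, which clear maternal mRNAs at the onset of zygotic transcription, had a summit within 5 kb, and their nearest was 8103 to 9082 bp away. Among the 16 of the X-linked testis clusters the count was also 0, with the nearest 11843 to 32521 bp away. Among 14 muscle and fat body miRNAs 4 had one, mir-14, mir-8, mir-33 and mir-317, while mir-1 and mir-133 had theirs 23832 and 29001 bp away.

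**Figure D4:**
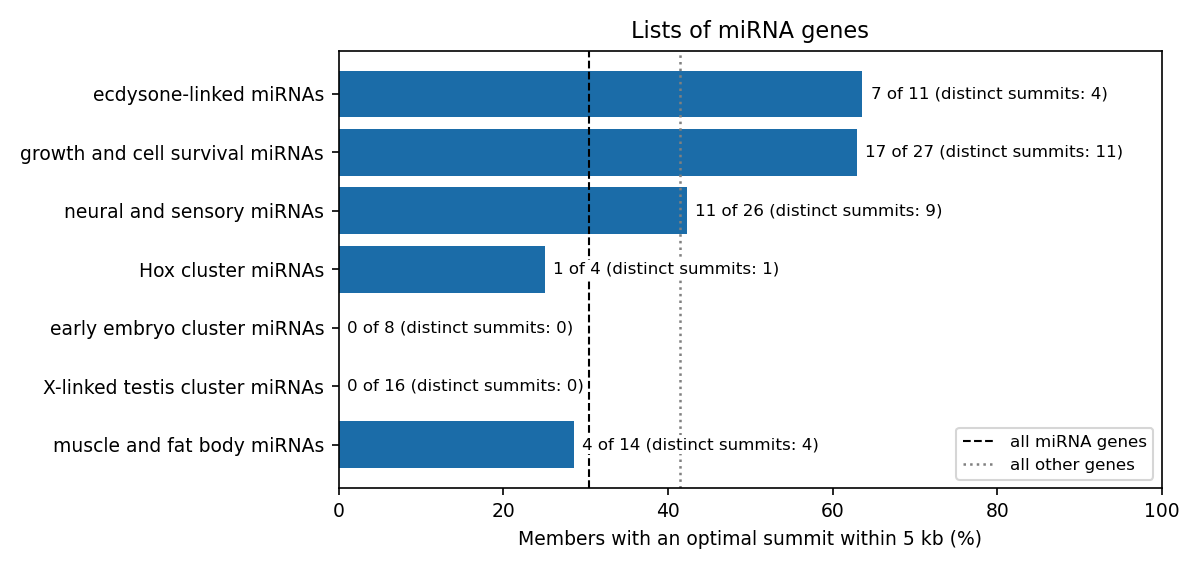
Members of 7 lists of miRNA genes with an optimal summit within 5 kb of the 5' end, in percent of the list, with counts and the number of distinct highest summits beside each bar. The dashed line is the share over all miRNA genes (30.4%) and the dotted line that over all other genes (41.5%); ecdysone-linked (7 of 11) and growth and cell survival miRNAs (17 of 27) have the longest bars, and the early embryo (0 of 8) and testis (0 of 16) clusters have none.

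Clusters and seed families shared summits. Hairpins of 1 strand within 10 kb of the next formed 22 clusters of 2 or more genes that held 79 of the 260. A summit lay within 5 kb of some member in 10 of these clusters and of every member in 9. The exception was the cluster of mir-317, mir-277 and mir-34, where mir-317 alone had one. The largest bound cluster, of mir-310, mir-311, mir-312, mir-313, mir-991, mir-992 and mir-2498, had a peak of signal 362 downstream, 1295 bp from mir-310, at 413 bp from a TSS of qsm.

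By seed, all 6 genes with AUUGCAC (mir-92a, mir-92b and mir-310 to mir-313) had a summit within 5 kb, through 2 distinct summits. Of the 14 genes with AUCACAG, 8 had one, through 4 summits, where 30.4% of all miRNA genes and 41.5% of other genes had one. Of the 3 with GACUAGA, mir-279 and mir-996 had one and mir-286, of the early embryo cluster, did not. Of the 3 with CUUUGGU, mir-9a had one, and mir-9b and mir-9c in grp did not. Some seeds thus had genes at loci with and without peaks, while others, such as AUUGCAC with all 6 and CACUGGG with 0 of 3, did not. Members of a cluster share their peak, so they are not separate observations.

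Of the 126 peaks with a distinct summit within 5 kb of a miRNA gene, 125 overlapped a peak of both libraries' own relaxed lists, against 97.9% of all 6614. Such presence is nearly fixed by how the optimal list was made from these libraries. The exception, near mir-4914 (192), had no replicate 1 peak. The value in replicate 3 was higher at 117, with a median ratio of replicate 3 to replicate 1 of 2.18, and these lists state no common scaling. Their median signal was 164, against 183 over all 6614 summits, and 49.2% of them lay within 500 bp of a coding TSS, against 44.2% of all.

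Near the edges of the windows, the last genes inside 500 bp were mir-282 at 319, mir-193 at 417 and mir-275 at 424 bp, and the first outside were mir-966 at 530, mir-4968 at 557 and mir-92a at 577 bp. The summit of mir-966 lay at the promoter of its host Pfas, a purine synthesis gene, with signal 193. Inside 5 kb the last were mir-9370 at 4840, mir-9375 at 4932 and mir-4944 at 4943 bp, and the first outside were mir-967 at 5038, mir-4983 at 5072 and mir-9376 at 5106 bp.

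A list of 28 protein-coding genes for making and using miRNAs, RNA interference and mRNA decay was bound at promoters in a higher share than coding genes at large. Of the genes that make miRNAs, drosha, pasha and Dcr-1 were not bound, and loqs had a signal of 145. No alternative was scored for this list, and the number of TSSs per gene was not compared. A summit lay within 500 bp of a TSS of 14 of 28 genes (50%, 30.6% to 69.4%), against 21.9% of all coding genes, and their median signal was 245, against 238 for all bound coding genes. The strongest were factors of mRNA silencing and decay: pAbp, the poly(A) binding protein, had 905 (205 in replicate 1, 694 in replicate 3), and PAN3, a deadenylase subunit, had 847 (255 and 595). For r2d2, the partner of Dicer-2 in RNA interference, it was 843 (318 and 516), but the summit also lay at a TSS of Herp.

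The further bound genes of this list had signals near or below 300. The helicase gene me31B, the deadenylase gene twin and the cap-binding gene Cbp20 had 306, 306 and 305, Ars2, which links the nuclear cap complex to Drosha, had 260, the decapping gene DCP2 had 230 and gw had 229. Nbr, which trims the 3' ends of miRNAs, had 190, Pop2 186 and DCP1 184. The DCP1 peak overlapped no peak of replicate 1. At loqs the signal was 145 (64.9 in replicate 1 and 80.7 in replicate 3) and at AGO1 115.3 (64.6 and 51.3), against a median of 183 over all summits. No optimal summit lay within 500 bp of a TSS of drosha, pasha, Dcr-1, the nuclear exporter gene Ranbp21, Dcr-2, AGO2, Hen1, Tailor, Cbp80, mahj, Larp4B, Not1, PAN2 or pcm. In twin, Cbp20, DCP2, Nbr, Pop2 and DCP1 the summit also lay within 500 bp of a TSS of another gene, so the bound promoter is shared.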

How the data were processed

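ChIP-seq peaks of woc-eGFP were recorded in 2 libraries of whole larvae, biological replicates 1 and 3. Per the labels and the text deposited with each library, the authors called peaks on dm6 for each library and on the pooled alignments, each with a control alignment, and kept an optimal list after the irreproducible discovery rate (IDR) procedure. The signal of a peak and its −log10 q are the authors' deposited values; the sources used here name no caller, aligner or IDR threshold. The relaxed lists hold 29999 peaks each. Lists on dm3 were not used.

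Genes came from Ensembl release 115 (BDGP 6.54), without transposable elements or records of mature arms. All 260 precursors had equal coordinates in RefSeq's dm6 annotation, which gave 481 mature arms. A gene's value is the signal of the highest optimal summit in the window, and its value in a library is that of the highest overlapping peak there (1 bp or more), which can be a neighbouring summit. Mirtrons have both ends within 5 bases of 1 intron's ends. Scoring was tested on simulated peaks at set distances. No test was run over genes; shares have exact binomial 95% intervals. Python 3.11.15, pandas 2.3.3, scipy 1.17.1, pysam 0.24.0 and matplotlib 3.10.9 were used. Alternatives were the windows, the highest-signal peaks, each library alone, the relaxed list, intervals in place of summits, hosts on either strand and 1 gene per cluster. Named were all genes within 500 bp, the 20 highest within 5 kb, list members, their hosts and those at the window edges. The members and lists were chosen with earlier results of these data known.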

Additional observations from a re-analysis of the deposited data

How the results depend on the processing

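No paired analysis was possible because the 2 libraries form 1 group. Over 69 alternatives for 8 shares, 45 stayed within the interval of the reported share and 24 moved outside it. Each move came with other windows, the peaks of highest signal or the relaxed list, and its cause was not tested. With windows of 1000 bp and 10 kb, 8.85% of miRNA genes had a summit in the near window and 48.8% in the far one, with 9.56% near and 55.9% far inside hosts and 41.1% far outside. With 250 and 2500 bp, the far shares were 17.3% of all, 14.7% inside and 20.2% outside. Of host promoters 19.4% were then bound, against 18.1% of coding genes. With the peaks of highest signal, the upper part of the list by rank, the shares were 0.385% near and 18.5% far, 0.735% and 19.1% inside, 0% and 17.7% outside, and 19.4% of host promoters. Of coding genes 14.2% were bound with these peaks. With the relaxed pooled list the shares were 20.4% and 65.8%, 14% and 67.6% inside, 27.4% and 63.7% outside, 54.8% of host promoters and 50% of ncRNA hosts. In that list 38.5% of coding genes and 30.5% of ncRNA genes were bound. Other genes had near and far shares of 21.6% and 56.6% in the larger windows, 13.7% and 29.8% in the smaller and 10.9% and 29.0% with the highest signals, all above the intervals of the miRNA shares. In the relaxed list the near share of other genes, 34.7%, was also above, but the far share, 66.6%, lay within the miRNA interval (59.7% to 71.5%), so the lower share within 5 kb was not seen there.

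Each library alone, cut to as many peaks as the optimal list, gave 3.08% to 3.46% near and 30% to 31.5% far, and 32.3% of host promoters either way. For ncRNA hosts, the share over all ncRNA genes lay within the hosts' interval with both other windows and without replicate 1. Without replicate 1, 6 of the 9 genes within 500 bp remained and mir-2496, mir-4949 and mir-966 joined. Without replicate 3, 6 remained, and mir-9370 and mir-966 joined. Within 5 kb, 73 and 69 of the 79 remained. Counting 1 gene per cluster gave 4.43% near and 30.5% far, and does not apply to hosts, which were already counted once. Depth is unknown. The relaxed list, which also holds background, had a peak within 500 bp of 53 miRNA genes.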
